A study of Mus with 2 samples.

Results

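The 9 genes described here encode enzymes of haem synthesis, with a pair of isozymes for its first step, and the transferrin receptor. The members were Alas1, Alas2, Alad, Uros, Urod, Cpox, Ppox, Fech and Tfrc. They were chosen by gene symbol, and each matched 1 of the 27998 gene rows. RNA was measured cell by cell in hematopoietic stem cells (HSCs) sorted from mouse tibia and fibula as lineage-negative Sca-1+ c-Kit+ (LSK) FLT3- CD150+ CD48- cells. The study asked whether HSCs that lack Id2, an inhibitor of DNA binding, leave quiescence. One library came from Mx1-Cre Id2+/+ mice and 1 from Mx1-Cre ID2Δ/Δ mice, in which Id2 was deleted (Id2-deleted below). All mice carried Mx1-Cre, a recombinase driven by an interferon-responsive promoter that acts in many cell types, and were given polyinosinic:polycytidylic acid (pIpC) to switch it on. Each library pooled 5 mice aged 8 to 12 weeks, and 1000 cells were sorted for each.

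In haem synthesis, ALAS joins glycine and succinyl-CoA inside the mitochondrion and sets the rate of the pathway. ALAS1 is made in most cells, and ALAS2 is made in erythroid cells, where iron controls its translation. ALAD, UROS and UROD work in the cytosol, after which CPOX, PPOX and ferrochelatase (FECH) finish the ring in the mitochondrion and insert iron. TFRC brings that iron into the cell as transferrin. Erythroid precursors make most of the haem of the body, for haemoglobin, and other cells need it for cytochromes and related enzymes.

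By the RefSeq annotation of GRCm38.p6 (mm10), all 9 members are protein-coding genes. Alas1 lies on chromosome 9 (106233455 to 106247954), Alas2 on X (150547417 to 150570622), Alad on 4 (62505984 to 62520063) and Uros on 7 (133686142 to 133710467). Urod lies on chromosome 4 (116989965 to 116994436), Cpox on 16 (58670208 to 58680391), Ppox on 1 (171276991 to 171281193), Tfrc on 16 (32608896 to 32632794) and Fech on 18. The annotated span of Uros overlaps Bccip by 1135 bases, and that of Alas2 lies within the span annotated for Apex2. How reads in these overlaps were assigned is not given in the sources used here.

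The Id2+/+ library held 8612217 unique molecular identifiers (UMIs, each marking 1 captured RNA molecule) and the Id2-deleted library 17140713. After a limit on mitochondrial UMIs, 333 and 625 cells remained, against 383 and 686 analyzed cells in the labels. They fell into 4 kinds, found by clustering with the 9 members left out of the variable genes. Retained stem cells numbered 262 and 416, and erythroid-like cells that express Klf1 numbered 35 and 156. Haemoglobin-rich erythroid-like cells numbered 9 and 13, and neutrophil-like cells 27 and 40. Without the mitochondrial limit Klf1-expressing cells numbered 51 and 163, and the other kinds kept their numbers. Median depth differed by kind, at 7081 and 9663 UMIs in stem cells, 37549 and 40038.5 in Klf1-expressing cells, 8406 and 8548 in haemoglobin-rich cells, and 17626 and 17986.5 in neutrophil-like cells. The sort was meant to hold HSCs alone, and 78.7% and 66.6% of the cells were retained as stem cells, meaning clusters that did not pass the markers of another type. The HSC label was not met evenly among them: over their 6 clusters the mean log2 fold of the HSC markers over all other cells ran from -1.12, in 8 and 66 cells led by platelet genes, to 1.08. When the stem cells were clustered on their own, a cluster of 81 Id2-deleted cells and one of 10 and 40 cells passed too few markers to be named. In the stem cells the 12 HSC markers summed to 1289 and 976 counts per 1000000 UMIs (CPM) with none at 0, against 198 and 185 CPM in Klf1-expressing cells. Between the libraries, 1 cell barcode was shared. Empty droplets, barcodes with 1 to 100 UMIs, held 46.3% and 22.4% of all UMIs.

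Id2 itself had 22 UMIs in Id2+/+ stem cells and 0 in Id2-deleted stem cells, which allows up to 0.640 CPM there. Neutrophil-like cells had 29 and 0 Id2 UMIs, empty droplets 33 and 0, and uncalled barcodes over 100 UMIs 14 and 4. These are counts of RNA, and whether the counted 3′ tag lies in the deleted segment was not examined. They thus do not show the deletion of the gene by themselves. The labels are at odds on 1 point, since a clause on the Id2-deleted sample gives Id2+/+ bones as its source, whereas the title and the genotype say deleted. With 1 library per genotype there was no replicate check and no test between genotypes. All intervals below are 95% intervals for counting error only, and values are given for Id2+/+ first and Id2-deleted second. Each molecule gives 1 UMI at its 3′ end whatever its length, and CPM values are compared mainly within a gene.

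**Figure D1:**
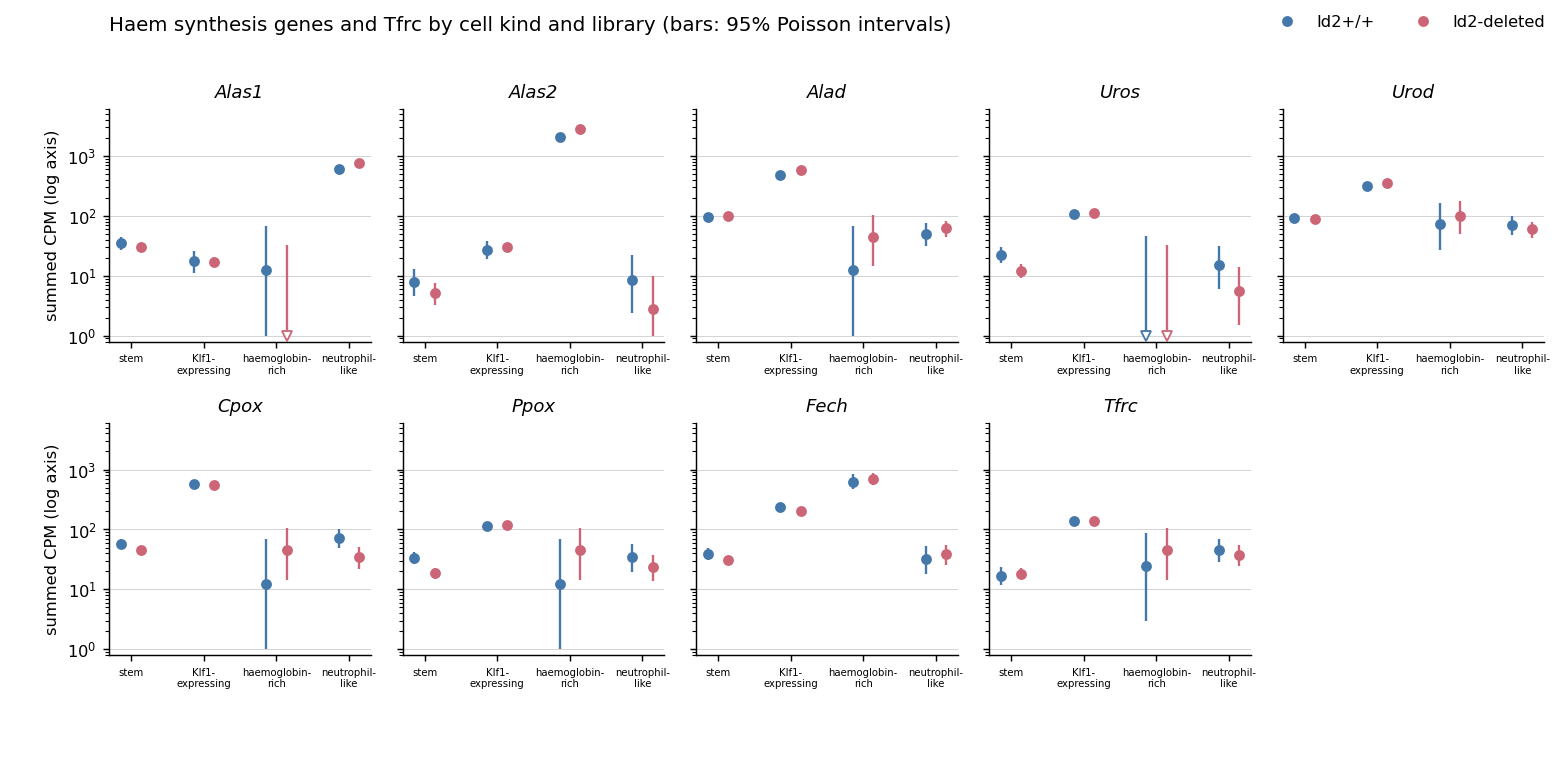
Summed CPM (log axis) of the 9 members in the 4 kinds of cells, with 1 point per library and 95% Poisson intervals, drawn down to 1 CPM at the lowest. Open triangles mark 0 UMIs; Alas1 stood highest in neutrophil-like cells, Alas2 and Fech in haemoglobin-rich cells, and the other members in Klf1-expressing cells.

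The genes of haem synthesis stood far higher in Klf1-expressing erythroid-like cells than in stem cells of the same library, with 1 exception. A member was called when its summed CPM differed by more than 2-fold and it had at least 20 UMIs over both kinds. By this rule 8 of 9 members were higher in both libraries, and the same 8, where 9.65% of all genes tested were higher in Id2+/+ and 9.53% in Id2-deleted cells. None of the 9 was called lower, where 29.1% and 30.6% of all genes were. The median log2 fold of the 9 members was 2.23 and 2.63, beside -0.27 and -0.30 over all genes tested. Alas1 was the exception, with folds of 0.503 (0.3005 to 0.812) and 0.562 (0.433 to 0.729), and was called in neither direction.

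**Figure D2:**
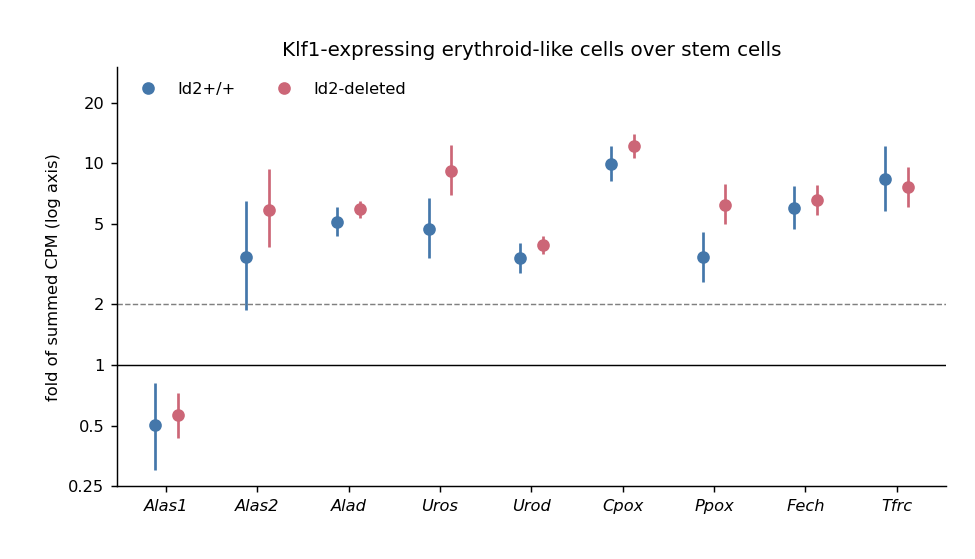
Fold of summed CPM in Klf1-expressing erythroid-like cells over stem cells (log axis) for each member, with 1 point per library and 95% counting intervals. The dashed line marks 2-fold and the solid line no difference; Alas1 alone lies below 1, and Cpox has folds of 9.96 and 12.1.

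Of the isozymes of the first step, Alas1 was at 34.7 and 29.9 CPM in stem cells and at 17.4 and 16.8 CPM in Klf1-expressing cells. Alas2 was at 7.97 and 5.12 CPM in stem cells, from 17 and 24 UMIs in all, and at 27.3 and 30.1 CPM in Klf1-expressing cells. On the CPM scale the isozymes thus went in opposite directions from stem to Klf1-expressing cells in both libraries. Klf1-expressing cells were deeper, and with depth left unequal Alas1 had a UMI in 40.0% and 49.4% of them. In stem cells this was 22.5% and 28.1%. The fold of Alas2 between these kinds was 3.43 (1.88 to 6.504) and 5.88 (3.83 to 9.40). In Klf1-expressing cells Alas2 was unevenly spread, with a UMI in 16 of 35 and 72 of 156 cells, and up to 7 and 23 UMIs in 1 cell.

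Among the cytosolic enzymes, Alad, which joins a pair of aminolevulinic acid molecules, was at 93.7 and 100.3 CPM in stem cells and 482 and 592 CPM in Klf1-expressing cells. It was found in all 35 and all 156 Klf1-expressing cells, with medians of 18 and 23 UMIs per cell. Uros closes the ring. It was at 22.5 and 11.95 CPM in stem cells and 106 and 109 CPM in Klf1-expressing cells, so that its folds of 4.72 (3.38 to 6.69) and 9.16 (6.97 to 12.3) differed more between the libraries than those of Alad. Urod, which trims the side chains, had the smallest fold among the called enzymes of the cytosol, at 3.38 (2.85 to 4.04) and 3.92 (3.53 to 4.36), from 91.4 and 89.6 CPM to 309 and 352 CPM.

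Of the last steps, Cpox, which oxidises coproporphyrinogen, had the largest fold of all members in both libraries, from 57.2 and 46.3 CPM in stem cells to 569 and 562 CPM in Klf1-expressing cells. Ppox, the oxidase that follows, went from 33.7 and 18.8 CPM to 115 and 117 CPM, with folds of 3.42 (2.56 to 4.59) and 6.23 (4.99 to 7.86). Here too the level in Klf1-expressing cells was alike in the libraries and the level in stem cells was not. Fech, which inserts the iron, was at 39.4 and 30.9 CPM in stem cells and at 237 and 203 CPM in Klf1-expressing cells. Tfrc, the receptor that supplies it, was at 16.9 and 18.4 CPM in stem cells and 140.3 and 139.7 CPM in Klf1-expressing cells. This was 8.31-fold (5.79 to 12.2) and 7.61-fold (6.10 to 9.62) higher.

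Since the kinds differed in depth, cells were also thinned to 5800 UMIs each, which left out 66 shallower Id2+/+ stem cells and 1 Id2+/+ Klf1-expressing cell. At this depth UMIs of at least 3 of the 9 members were found in 33.2% (26.6 to 40.2) and 22.6% (18.7 to 26.9) of stem cells. In Klf1-expressing cells the share was 100% (89.7 to 100) and 98.1% (94.5 to 99.6), in 34 and 156 cells. Cpox was seen in 30.6% and 21.4% of stem cells and in 88.2% and 94.9% of Klf1-expressing cells. Tfrc was seen in 7.14 to 13.3% and 8.65 to 12.3% of stem cells over 20 other random draws of UMIs, and in 47.1 to 67.6% and 50.0 to 61.5% of Klf1-expressing cells. Before thinning, Cpox UMIs were in 92 of 262 and 157 of 416 stem cells, and Tfrc UMIs in 35 and 75. Alas2 was seen in 4.59% (2.12 to 8.54) and 4.09% (2.40 to 6.46) of thinned stem cells, beside 3.70% (0.0937 to 19.0) of Id2+/+ and 0 of 40 Id2-deleted neutrophil-like cells, which should lack it (0 of 40 allows up to 7.5%). Over 20 other random draws the neutrophil-like share ran from 0 to 11.1% and from 0 to 5%, and unthinned it was 4 of 27 and 2 of 40 cells. In thinned Klf1-expressing cells the share with Alas2 ran from 5.88 to 23.5% and from 10.3 to 17.3% over those draws, and in stem cells from 2.04 to 5.61% and from 2.40 to 4.09%, so that in Id2+/+ cells these ranges nearly met. The stem cell ranges lay within those of the neutrophil-like cells, and no expression is read from them.

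The members were also abundant in the empty droplets, where Alad was at 529 and 643 CPM, Cpox at 312 and 328 CPM, Tfrc at 98.6 and 113 CPM and Alas2 at 76.5 and 42.1 CPM. If every haemoglobin UMI in stem cells came from such free RNA, free RNA made up at most 10.5% and 5.41% of their UMIs. It would then account for 17.1 of the 17 Alas2 UMIs in Id2+/+ stem cells and 10.7 of the 24 in Id2-deleted stem cells. For Alad it would account for 118 of 200 and 163 of 470 UMIs, and for Cpox for 69.8 of 122 and 83.1 of 217. In Klf1-expressing cells the same share was 2.26% and 1.51%, or 15.8 of 635 and 61.1 of 3735 Alad UMIs. By this estimate the stem cell levels are upper values and the folds over stem cells lower ones.

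**Figure D3:**
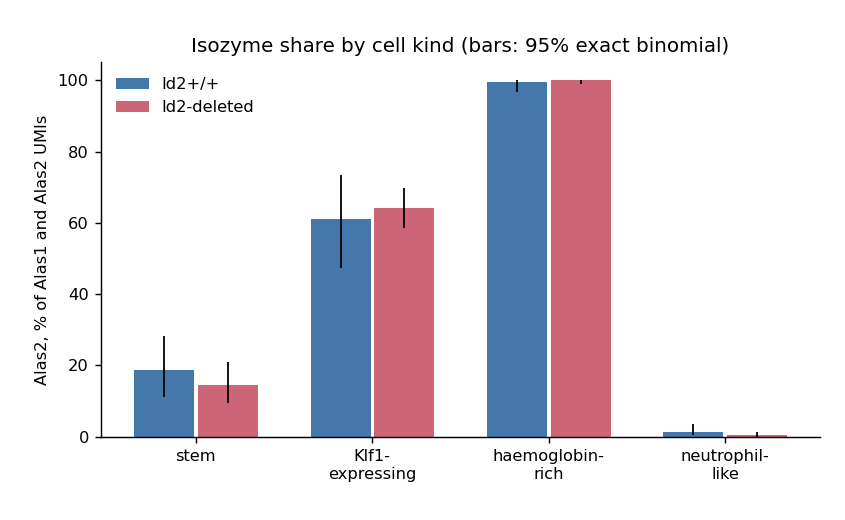
Alas2 as a percentage of the summed Alas1 and Alas2 UMIs in each kind of cell and library, with 95% exact binomial intervals. The share runs from 1.44% and 0.365% in neutrophil-like cells to 99.4% and 100% in haemoglobin-rich cells.

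The share of Alas2 among the UMIs of both isozymes differed between the kinds of cells. In stem cells it was 18.7% (11.3 to 28.2) and 14.6% (9.61 to 20.99), and with free RNA subtracted it went to 0% in Id2+/+ stem cells. It was 61.0% (47.4 to 73.5) and 64.2% (58.4 to 69.7) in Klf1-expressing cells, and 99.4% (96.8 to 99.99) and 100% (98.8 to 100) in haemoglobin-rich cells. In neutrophil-like cells it was 1.44% (0.393 to 3.64) and 0.365% (0.0442 to 1.31). Without that subtraction the libraries' intervals overlapped in every kind, and those of different kinds did not overlap within a library.

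Within the Klf1-expressing cells, Alas2 followed haemoglobin far more steeply than any other member did. The cells of each library were put into 3 bins of nearly equal number by the share of their UMIs that came from 4 haemoglobin genes. Median depth in these bins ran from 33798 to 44383 UMIs in Id2+/+ cells and from 36935.5 to 43067.5 in Id2-deleted cells. Alas2 was at 3.78, 23.0 and 67.6 CPM from the low to the high bin in Id2+/+ cells and at 7.12, 15.9 and 74.8 CPM in Id2-deleted cells. The high bin thus stood 17.9-fold (4.44 to 156) and 10.5-fold (6.25 to 18.9) above the low bin. Without the 1 and 2 cells that had over 5% haemoglobin UMIs, a step added after the data were seen, these folds were 12.2 (2.90 to 109) and 8.26 (4.87 to 14.96).

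**Figure D4:**
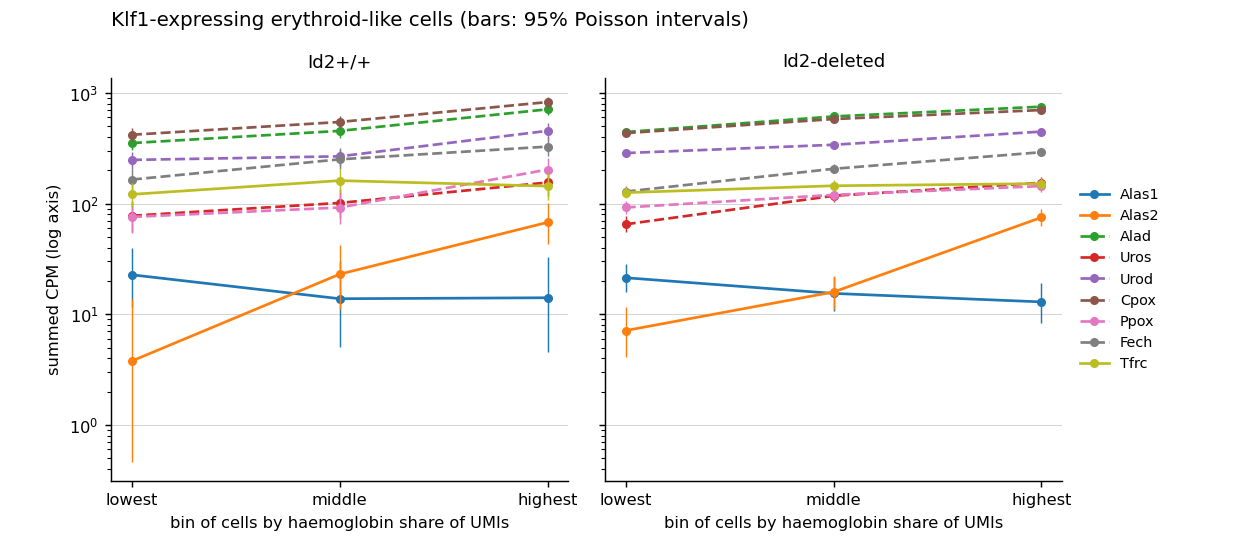
Summed CPM (log axis) of the members in Klf1-expressing erythroid-like cells, in 3 bins by haemoglobin share of UMIs, with 95% Poisson intervals and 1 panel per library. Alas2 has the steepest slope, Tfrc is nearly level, and Alas1 lies lower in the high bin than in the low bin.

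The enzymes after the first step were also higher where haemoglobin was higher, but less steeply. From the low to the high bin Alad, Uros, Urod, Cpox, Ppox and Fech had folds of 1.83 to 2.68 in Id2+/+ cells. In Id2-deleted cells their folds were 1.56 to 2.37. All 12 intervals lay above 1, and no share over all genes is given for these bins. Fech went from 165 to 327 CPM and from 128 to 291 CPM. Tfrc had folds of 1.19 (0.805 to 1.74) and 1.21 (1.02 to 1.43), so that the receptor was nearly level across the bins. Alas1 had folds of 0.621 (0.171 to 1.89) and 0.605 (0.354 to 1.007), and its lower value in the high bin was within counting error in both libraries. Car1, a carbonic anhydrase, went the other way, from 2795 to 1884 CPM and from 2990 to 2129 CPM.

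In the haemoglobin-rich cells, where haemoglobin made up 87.1% and 88.3% of UMIs, Alas2 and Fech stood above Klf1-expressing cells, and on the scale of all UMIs no other member did. Alas2 was in every cell, with 14 to 24 UMIs per cell in the 9 Id2+/+ cells and 12 to 43 in the 13 Id2-deleted cells, and was at 2095 and 2791 CPM. That was 76.7-fold (53.3 to 113) and 92.7-fold (77.2 to 112) above Klf1-expressing cells. Fech was also in every cell, at 628 and 689 CPM, or 2.66-fold (1.94 to 3.58) and 3.39-fold (2.66 to 4.27) above Klf1-expressing cells. The enzymes that begin and end the pathway were thus the ones found in every one of these cells.

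The other members had few UMIs in these cells. Uros had 0 in both libraries, which allows up to 37.0 and 26.8 CPM. Alas1 had 1 and 0, while Alad had 1 and 5 and Urod 6 and 11. For Alad this was 12.3 and 44.7 CPM of all UMIs, against 482 and 592 CPM in Klf1-expressing cells. Cpox, Ppox and Tfrc had 1, 1 and 2 UMIs in Id2+/+ cells and 5 each in Id2-deleted cells. One Id2-deleted cell, with 74.1% haemoglobin UMIs, held 4 of the 5 UMIs of each of these 3 genes. Without the cell with most other UMIs in each library, a step added after the data were seen, Cpox was at 14.3 and 9.65 CPM in place of 12.3 and 44.7 CPM, and Alas2 was at 2096 and 2691 CPM. Since haemoglobin fills these libraries, CPM here is low for every other gene: over the UMIs that were not haemoglobin, Alas2 was at 16259 and 23851 CPM and Fech at 4878 and 5886 CPM. On that scale Urod was at 574 and 841 CPM, against 312 and 354 CPM in Klf1-expressing cells, and Tfrc at 191 and 382 CPM, against 141.5 and 140.8 CPM, so that both then lay above. Alad, Cpox and Ppox were each at 95.6 and 382 CPM, against 486 and 596 CPM for Alad, 574 and 566 CPM for Cpox and 116 and 118 CPM for Ppox, so that Ppox lay above in the Id2-deleted library. Alas1 was at 95.6 CPM in Id2+/+ cells, against 17.6 CPM. All of these but Alas2 and Fech rest on 1 to 11 UMIs per library. Without the same cells, Tfrc was at 229 and 91.1 CPM and Ppox at 114 and 91.1 CPM on this scale, so that in the Id2-deleted library both then lay below Klf1-expressing cells, while Urod, at 572 and 546 CPM, stayed above.

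Neutrophil-like cells carried the ubiquitous isozyme at a level no other kind reached. Alas1 was at 593 (525 to 668) and 752 (690 to 817) CPM, or 17.1-fold (13.2 to 22.4) and 25.2-fold (20.9 to 30.5) above stem cells. It was found in 27 of 27 and 39 of 40 cells, with medians of 9 and 13 UMIs per cell. Free RNA would account for 3.22 of its 274 and 1.60 of its 546 UMIs. Alas1 was thus spread over these cells and not held by a few of them.

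Beside Alas1, Tfrc was the member called higher in neutrophil-like cells than in stem cells, at 45.5 and 37.2 CPM, or 2.69-fold (1.495 to 4.74) and 2.03-fold (1.26 to 3.15). These 2 of 9 members stand beside 5.33% and 5.65% of all genes called higher. None was called lower in Id2+/+ cells and 1, Uros at 0.461 (0.121 to 1.25), in Id2-deleted cells, where 32.5% and 34.7% of all genes were. The later enzymes did not share the level of Alas1. Alad was at 49.8 and 61.9 CPM and Fech at 32.5 and 38.5 CPM. Uros had 7 and 4 UMIs. Compared between the libraries, Alas1 was 1.27-fold (1.09 to 1.47) higher and Cpox 0.482-fold (0.275 to 0.835) in Id2-deleted neutrophil-like cells, which were 27 and 40 cells.

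Uros and Ppox were lower in stem cells of the Id2-deleted library, and for the other members the interval of the ratio held 1. A member was called when the libraries differed by more than 1.5-fold with at least 20 UMIs over both. None was called higher in Id2-deleted stem cells, where 3.76% of all genes were, and 3 of 9 were called lower, where 13.3% of all genes were. The median log2 ratio of the members was -0.31, beside -0.08 over all genes tested. The 3 were Uros, with a ratio of 0.531 (0.355 to 0.798), Ppox, with 0.556 (0.403 to 0.771), and Alas2, with 0.643 (0.331 to 1.27), whose interval held 1. Free RNA subtracted from both left 0 Alas2 UMIs in Id2+/+ and 13.3 in Id2-deleted stem cells, so that the direction for Alas2 turned with that estimate.

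**Figure D5:**
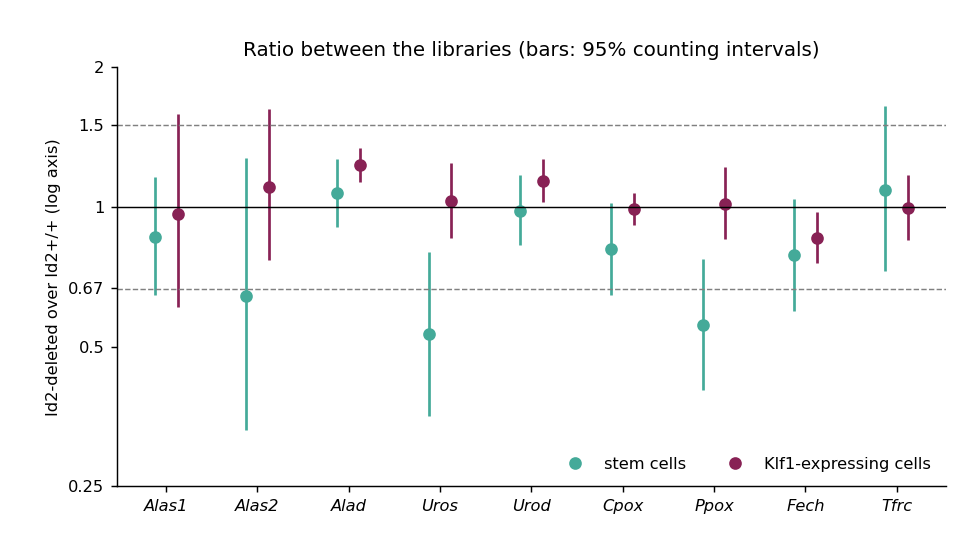
Ratio of summed CPM, Id2-deleted over Id2+/+, in stem cells and in Klf1-expressing erythroid-like cells (log axis), with 95% counting intervals. Dashed lines mark 1.5-fold either way; Uros and Ppox lie at 0.531 and 0.556 in stem cells and at 1.03 and 1.014 in Klf1-expressing cells.

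Uros had 48 UMIs in 41 of 262 Id2+/+ stem cells and 56 UMIs in 53 of 416 Id2-deleted stem cells. Ppox had 72 UMIs in 61 cells and 88 UMIs in 78 cells. The lower levels were thus not set by single cells, which held at most 6.25% and 3.57% of the Uros UMIs. At equal depth Uros was seen in 13.3% (8.85 to 18.8) and 8.17% (5.73 to 11.2) of stem cells, and Ppox in 16.3% (11.4 to 22.3) and 10.1% (7.37 to 13.4). Over 20 other random draws of UMIs, Uros was seen in 11.2 to 15.8% and 4.57 to 7.93% of them, and Ppox in 14.8 to 18.9% and 9.38 to 12.3%. The draw printed first is thus above all the others for Uros in Id2-deleted stem cells. With free RNA subtracted, the ratios were 0.504 for Uros and 0.656 for Ppox. Both libraries pooled mice of both sexes, by their Xist and Y-linked UMIs. In the 84 and 231 stem cells that had Xist UMIs but none from Y-linked genes, Uros was at 0.778 and no longer called, and Ppox was at 0.609. In the 93 and 90 stem cells that had Y-linked UMIs but no Xist, Uros was at 0.486 and Ppox at 0.751 and no longer called.

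The other 6 members differed by less than 1.5-fold in stem cells. Alas1 had a ratio of 0.861 (0.645 to 1.16), Alad 1.07 (0.905 to 1.27), Urod 0.981 (0.826 to 1.17), Cpox 0.810 (0.646 to 1.02), Fech 0.786 (0.597 to 1.04) and Tfrc 1.09 (0.729 to 1.65). All 6 intervals held 1. These ratios moved with the estimate of free RNA, which was at most 10.5% of stem cell UMIs in Id2+/+ and 5.41% in Id2-deleted cells. With it subtracted, Alad was at 1.62 and Tfrc at 1.77, and both were then called higher. No share over all genes is given under that subtraction. Alas1, at 1.24, Urod, at 1.18, and Cpox, at 1.10, then lay on the other side of 1, and Fech was at 0.984. The ratios of the first 5 of these in stem cells therefore depended on that estimate.

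Stem cells clustered mostly by library, so that subgroups could be set side by side only by name. Leading genes of the clusters of Id2+/+ cells alone included the rows Gm10116, Rpl9-ps6, Gm10053 and Pcna-ps2. Library and genotype cannot be told apart in this. Of the clusters called HSC-like by their markers, 1 held 169 Id2+/+ cells alone and the other held 9 Id2+/+ and 185 Id2-deleted cells. Over both clusters, a comparison added after the data were seen, the ratios were 0.548 for Uros, 0.454 for Ppox and 1.13 for Cpox. Cpox, Alas1 (1.12) and Tfrc (0.844) thus changed their side of 1, and Uros and Ppox did not. Platelet-biased HSC-like clusters held Cpox at 67.8 CPM in 71 Id2+/+ cells and at 45.7 and 61.1 CPM in clusters of 58 and 52 Id2-deleted cells. The 65 and 104 stem cells with the highest summed level of 44 cell cycle genes were set against the lowest 131 and 208 cells. The fold of Cpox was 1.59 (1.04 to 2.45) in Id2+/+ and 0.884 (0.640 to 1.22) in Id2-deleted cells, and every other member's interval held 1 in both libraries.

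Over all Klf1-expressing cells the libraries differed by less than 1.5-fold for every member. This did not hold for Ppox and Alas2 within the cluster with more haemoglobin, for which no share over all genes is given. Over the whole kind none was called higher, where 5.64% of all genes were, and none lower, where 11.8% of all genes were. The median log2 ratio of the members was 0.02, beside -0.03 over all genes tested. Ratios ran from 0.859 (0.758 to 0.975) for Fech to 1.23 (1.13 to 1.34) for Alad. Urod, at 1.14 (1.02 to 1.27), also had an interval above 1. Uros and Ppox, the members called lower in stem cells with intervals below 1, were at 1.03 (0.859 to 1.25) and 1.014 (0.851 to 1.22) here. Whether their ratios differed between the kinds was not tested.

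The libraries differed in the makeup of this kind, and the values move with it. Without the mitochondrial limit this kind held 51 and 163 cells, against 35 and 156. Clusters were split by haemoglobin after the data were seen. The cluster with more haemoglobin, over 1% of UMIs, held 8 of the 35 Id2+/+ cells (22.9%) and 76 of the 156 Id2-deleted cells (48.7%). The clusters with less haemoglobin were 1 of 27 Id2+/+ cells alone and 1 of 80 Id2-deleted cells alone, so that library and cluster cannot be told apart there. Between these clusters none was past 1.5-fold, Alad had a ratio of 1.17 (1.05 to 1.2997), Fech of 0.736 (0.625 to 0.868) and Alas2 of 0.725 (0.385 to 1.43). Within the cluster with more haemoglobin, 2 members were past 1.5-fold lower, Ppox at 0.604 (0.458 to 0.810) and Alas2 at 0.625 (0.395 to 1.04). No share over all genes is given for that cluster, so this count has no background. There Fech was at 0.678 (0.549 to 0.845), Cpox at 0.702 (0.612 to 0.808), Uros at 0.753 (0.552 to 1.05), Urod at 0.907 (0.747 to 1.11), Alad at 0.937 (0.807 to 1.09) and Tfrc at 1.07 (0.756 to 1.57). Haemoglobin itself made up 2.86% and 1.35% of UMIs in that cluster and 0.385% and 0.212% in the others. Fech was thus lower in the Id2-deleted library in both comparisons, as was the haemoglobin share. Alas2, at 1.10 over the whole kind, was below 1 in both, with intervals that held 1. The part of this difference in makeup and haemoglobin share in the ratios was not tested.

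Of the 55 other genes of haem and iron metabolism and erythroid control that were listed, 52 had enough UMIs to compare Klf1-expressing with stem cells. In Id2+/+ cells 21 were called higher and 8 lower, and in Id2-deleted cells 19 and 9. The median log2 fold of the tested genes was 0.62 and 0.58. Of 8 genes for mitochondrial transport of glycine, iron and porphyrins 6 and 5 were higher, with 1 and 0 lower. Of 10 for iron-sulphur assembly 4 and 5 were higher and 1 and 2 lower. Of 8 erythroid regulators 3 were higher and 2 lower in each library. The higher 3 were Gata1, Klf1 and Epor, all markers by which this kind was set apart from stem cells. Their calls, counted in the 21 and 19, were thus tied to the choice of cells. Over all genes tested, 9.65% and 9.53% were higher and 29.1% and 30.6% lower. Among the listed genes the 3 with the largest folds were the same in both libraries. Klf1, a regulator of red cell genes that also marks these cells, was 13.4-fold and 18.1-fold higher, Blvrb, a biliverdin reductase, 10.1-fold and 11.8-fold, and Slc40a1, the iron exporter ferroportin, 9.84-fold (5.31 to 19.9) and 12.4-fold (7.88 to 20.5). The 3 lowest were also shared. Trf, transferrin, went from 28.1 and 22.6 CPM in stem cells to 2 and 6 UMIs in Klf1-expressing cells, Hmox1, which breaks haem down, from 13.6 and 12.4 CPM to 2 and 8 UMIs, and Nfe2 was at 0.235 (0.175 to 0.312) and 0.298 (0.259 to 0.341).

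In neutrophil-like cells 3 of 51 and 3 of 53 genes tested of the wider list were called higher than in stem cells, close to the 5.33% and 5.65% over all genes. Another 12 and 18 were called lower, where 32.5% and 34.7% of all genes were, and 6 and 7 of these were erythroid regulators. The 3 higher ones were Slc40a1, at 13.1-fold (6.61 to 27.8) and 17.7-fold (10.5 to 31.2), Hfe, a partner of the transferrin receptor, at 6.67-fold (2.64 to 17.7) and 11.5-fold (4.77 to 29.4), and Abcb10, a mitochondrial transporter, at 2.25-fold and 2.51-fold. Between the libraries, none of the 52 genes tested in stem cells was called higher and 2 were lower, Isca1, an iron-sulphur assembly factor, at 0.339 (0.255 to 0.449), and Slc25a38, the mitochondrial glycine carrier, at 0.511 (0.361 to 0.726), where 3.76% of all genes were higher and 13.3% lower. In Klf1-expressing cells none of 50 was higher and 2 were lower, Isca1 at 0.438 (0.361 to 0.532) and Bach1, a haem-sensing repressor, at 0.579 (0.300 to 1.19), where 5.64% of all genes were higher and 11.8% lower. Isca1 was the gene of this list called lower in both kinds. In stem cells Ireb2 and Aco1, both iron regulatory proteins, were among the 3 highest, at 1.37 (0.801 to 2.43) and 1.33 (0.851 to 2.15), and Slc25a37 was the next lowest at 0.683 (0.455 to 1.03). In Klf1-expressing cells Clpx, Ireb2 and Iscu were highest, at 1.27, 1.25 and 1.20, and Ldb1 was the next lowest at 0.791.

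Over the 8 profiles, 4 kinds in 2 libraries, the members fell into patterns that the rule of choice did not use. Alas2 and Fech went together (Pearson r = 0.90 of log2(CPM + 10)), and both went apart from Alas1 (r = -0.62 and -0.72). Alad, Uros, Urod, Cpox and Ppox went together, with r from 0.86 to 0.96 over their 10 pairs. Tfrc lay near them, with r from 0.76 (Uros) to 0.91 (Ppox). Among 8535 genes with at least 100 UMIs, the genes most like Alas2 were Hbb-bs (r = 0.996), Hba-a2 (0.984) and Hbb-bt (0.980). Those most like Alas1 were Ptgr1 (0.998), Kctd20 (0.998) and Lta4h (0.987), and those most like Fech were Hba-a1 (0.983), the mitochondrial iron carrier Slc25a37 (0.979) and March2 (0.974). Cpox was most like Mgll (0.988), Steap3 (0.986) and Mt2 (0.986), Urod like Aqp1 (0.987), Ubac1 (0.986) and Car1 (0.986), Alad like Ftsj1 (0.998), Mki67 (0.990) and Odc1 (0.9898), Uros like Cercam (0.995), Fads3 (0.992) and Osgepl1 (0.992), Ppox like 1700086O06Rik (0.981) and Slc25a21 (0.968), and Tfrc like Cd24a (0.965), Hpn (0.957) and Kel (0.942). These profiles share libraries and differ in depth, and the coefficients only describe them.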

How the data were processed

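Raw UMI counts per gene and barcode were deposited by the authors as 1 unfiltered matrix per library (737280 barcodes, 27998 genes). The submitters' processing notes name Cell Ranger 2.2.0 and mm10. The members, gene lists and comparisons were chosen with earlier results of these data known.

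Barcodes counted as cells when they reached 10% of the depth that marks the 99th percentile among the 1000 deepest, and were kept below 10% mitochondrial UMIs. Cells were clustered with scanpy 1.11.5 (2000 variable genes without the members, 20 components, 15 neighbours, Leiden at resolution 1, then 0.8 within stem cells, seed 0). A cluster was set apart from stem cells when at least 4 markers of another type had a log2 fold over 1 in at least 25% of its cells, provided that the mean log2 fold of its HSC markers was below 0. Erythroid-like clusters were haemoglobin-rich or Klf1-expressing by their summed haemoglobin share. Doublets were not removed, and Scrublet was run as an alternative (2 and 1 cells marked).

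Counts were summed by kind and library into CPM with exact Poisson intervals, ratios with exact conditional intervals and shares with Clopper-Pearson intervals, at 95%. Reads behind the UMIs and mice behind a pool were not resolved. Limits for a count of 0 use 3 counts. For shares, cells were thinned to 5800 UMIs. Free RNA was estimated from the haemoglobin UMIs of stem cells and the profile of barcodes with 1 to 100 UMIs. Named genes were the members, Id2 and, between Klf1-expressing and stem cells and between the libraries in each, the 3 highest and 3 lowest folds of the wider list at 20 UMIs or more, plus the 3 genes whose log2(CPM + 10) over the 8 profiles correlated best with a member. Hfe, Abcb10 and Car1 were named after their values were seen. Some genes this rule names are not reported here. Intervals were tested on simulated counts. Alternatives included edgeR 4.0.16 TMM factors in R 4.3.3.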

Additional observations from a re-analysis of the deposited data

How the results depend on the processing

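No paired analysis was possible because only 1 library stands for each genotype. The count of 8 members higher in Klf1-expressing than in stem cells was the same in both libraries under every alternative run. No share over all genes is given under the alternatives, so their counts have no background. The count of 0 called lower between the libraries in Klf1-expressing cells went to 2 (Ppox and Alas2) in the cluster with more haemoglobin, taken alone after the data were seen, and was 0 under the other alternatives, as was the count called higher under all. In stem cells the count called higher in the Id2-deleted library went from 0 to 2 with free RNA subtracted (Alad and Tfrc). The count called lower went from 3 to 0 at 2-fold, and to 1 when stem cells were limited to those showing Xist alone (Ppox) or Y-linked genes alone (Uros). It was 2, Uros and Ppox, with TMM factors, with CPM averaged cell by cell, with free RNA subtracted and over the HSC-like clusters alone. TMM factors divided the folds of Klf1-expressing over stem cells by 0.843 and 0.791 and the ratios between libraries by 0.928 in stem and 0.960 in Klf1-expressing cells. The Alas2 share of isozyme UMIs went to 0% in Id2+/+ stem cells with free RNA subtracted. In Id2+/+ haemoglobin-rich cells it went to 100% with free RNA subtracted and without the cell with most Alas2 UMIs. Cells with UMIs of at least 3 members depended on depth and on the UMIs asked for: in stem cells 8.02% and 6.49% at 3000 UMIs and 0.510% and 0% with at least 2 UMIs, and in Klf1-expressing cells 74.3% and 76.3%, and 70.6% and 68.6%. Over 20 other random seeds the share in Id2-deleted cells reached 18.5% in stem cells at the lowest and 100% in Klf1-expressing cells at the highest. Uros and Ppox stayed below 1 in stem cells under every alternative run, and Alas2 did so wherever it kept UMIs in both libraries. The causes of these changes were not tested. UMIs were few for Alas2 in stem cells, at 17 and 24, and for every member other than Alas2 and Fech in haemoglobin-rich cells.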
